A study of Rattus norvegicus with 22 samples.

Results

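The glutathione, thioredoxin and NRF2 target genes were examined in the tongue of the F344 rat as a set of 52 genes, among 19167 genes with a symbol on the array. The rule takes them by symbol: the cytosolic and kappa glutathione S-transferases, glutathione peroxidases, peroxiredoxins and thioredoxin reductases, with thioredoxin, the enzymes that make and recycle glutathione, Nqo1, Hmox1, sulfiredoxin, catalase, the superoxide dismutases, and the regulators Nfe2l2 and Keap1. Each gene was represented by its brightest probe over the 22 arrays, and 6 of them had a second probe.

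Both groups came from male F344 rats, aged about 33 weeks, which had received the carcinogen 4-nitroquinoline 1-oxide (4-NQO) in drinking water at 20 ppm for 10 weeks and were necropsied 23 to 26 weeks after the first exposure. Each of 11 rats gave 1 oral squamous cell carcinoma (OSCC) and 1 piece of adjacent phenotypically normal tongue. The submitters' titles carry the word untreated on every array and their labels give the normal pieces a treatment of none, whereas the deposited protocol takes them from the same exposed rats, and the protocol was followed here. The normal tissue was therefore exposed to the carcinogen too, and no tissue from unexposed rats was analysed here. Both tissues were bulk pieces. A lower signal can mean fewer cells of a type or less RNA per cell, and these cannot be told apart.

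RNA from each piece was measured on its own 1-colour Agilent array. Levels are given as scaled log2 signal, in which 0 is the 75th percentile of the probes of that array, and differences are OSCC minus normal on the log2 scale. A gene was said to rise or fall where limma, with rat as a block, gave a Benjamini-Hochberg adjusted p below 0.05 over all 30367 probes. Levels of different genes come from different probes and were not compared. The median difference of all probes was -0.24, and other scalings placed it between -0.44 and -0.03, so small differences stand beside that shift. Among probes well above background on at least 11 arrays the median was -0.04. All 11 normal arrays and the OSCC arrays of animals 4 and 9 were scanned on 1 day, the other 9 OSCC arrays on another day, and no slide held both tissues. The 75th percentile itself was 236.8 to 654.9 signal units on normal arrays and 338.7 to 1414 on OSCC arrays.

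NRF2, the product of Nfe2l2, is a transcription factor that KEAP1 holds in the cytoplasm and delivers for degradation until oxidants or electrophiles modify KEAP1. Freed NRF2 enters the nucleus, pairs with small MAF proteins and binds antioxidant response elements in genes that make glutathione, reduce thioredoxin, detoxify quinones and conjugate electrophiles. Glutathione peroxidases and peroxiredoxins remove peroxides at the cost of glutathione or thioredoxin, and glutathione S-transferases couple glutathione to reactive compounds. In squamous cell cancers this pathway is known to be switched on in some tumors by mutation of its regulators.

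The core letters of the antioxidant response element, TGACNNNGC on either strand, were searched in the RefSeq promoters of rat assembly GRCr8, from 250 bases before to 50 after each annotated start. Promoters were found for 44 of the 52 genes (not for Gpx8, Gsr, Gstm6l, Gstt1, Gstt2, Hmox1, Prdx6 and Sod3). The core was present in 14 of these (31.8%), against 12.1% of 33469 promoters, and the looser TGANNNNGC, which includes the core, in 25 (56.8%) against 40.5%. These shares are descriptions, and a match is not a binding site. Promoter stretches that hold the core before the start are shown for 3 genes whose difference between tissues was largest in the OSCC of animal 26 (Gstp1, Prdx1, Gpx2), for the 3 that fell (Gstm5, Gstm7, and the gene whose array probe is named Gsta5 and which RefSeq now calls Gsta3), and for the glutamate-cysteine ligase modifier Gclm. Gstz1 and Sod2, which also hold it there and did not pass the test, are not shown. The promoters of Nqo1, Gclc, Gss, Gstm1, Srxn1 and Txnrd1, whose differences were also highest in animal 26, held no core. Capitals mark the core, read 5′ to 3′ on the gene's strand.
Gstp1 (chr1:210769728-210769796, minus strand): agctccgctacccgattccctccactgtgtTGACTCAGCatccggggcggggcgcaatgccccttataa
Prdx1 (chr5:135383741-135383809, plus strand): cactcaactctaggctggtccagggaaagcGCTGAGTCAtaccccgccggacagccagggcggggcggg
Gpx2 (chr6:101230034-101230076, minus strand): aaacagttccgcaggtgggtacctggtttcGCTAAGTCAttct
Gstm5 (chr2:198219626-198219754, plus strand): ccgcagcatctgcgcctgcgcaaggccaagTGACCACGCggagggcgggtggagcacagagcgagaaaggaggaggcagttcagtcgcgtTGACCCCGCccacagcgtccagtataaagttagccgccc
Gstm7 (chr2:198260320-198260363, minus strand): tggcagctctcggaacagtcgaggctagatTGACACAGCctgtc
Gsta5 on the array, now Gsta3 (chr9:31154942-31154988, plus strand): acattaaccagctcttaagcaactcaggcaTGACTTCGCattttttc
Gclm (chr2:213031933-213032001, plus strand): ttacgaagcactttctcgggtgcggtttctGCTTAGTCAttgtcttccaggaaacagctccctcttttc
In Gstp1 and Prdx1 the core overlaps the letters TGACTCA, the AP-1 element, and in Prdx1, Gpx2 and Gclm it lies on the opposite strand. The 7 genes whose promoters are shown did not move together: Gstm5, Gstm7 and array Gsta5 fell in OSCC, Gstp1, Prdx1 and Gpx2 did not pass the test, and Gclm was well above background on none of the arrays.

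Of the 52 genes, 8 rose in OSCC (15.4%, against 17.0% of all genes), 18 fell (34.6%, against 27.9%) and 26 did not pass the test. With a change of at least 2-fold as well, 4 rose (7.69%, against 7.48%) and 6 fell (11.5%, against 7.24%). The shares that rose were close to those of all genes. The median difference over the 52 was -0.24, against -0.21 over all genes. The set was brighter, with 43 of 52 well above background on every array, against 9573 of 19167 genes. Since the median of all probes was -0.04 after the dim ones were filtered out, the medians and shares of all genes are not like for like. The set did not shift as a block: no glutathione S-transferase rose and 11 of 20 fell, whereas 3 of 8 glutathione peroxidases rose. No gene of the set had groups that did not overlap, and 318 of all genes did.

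**Figure D1:**
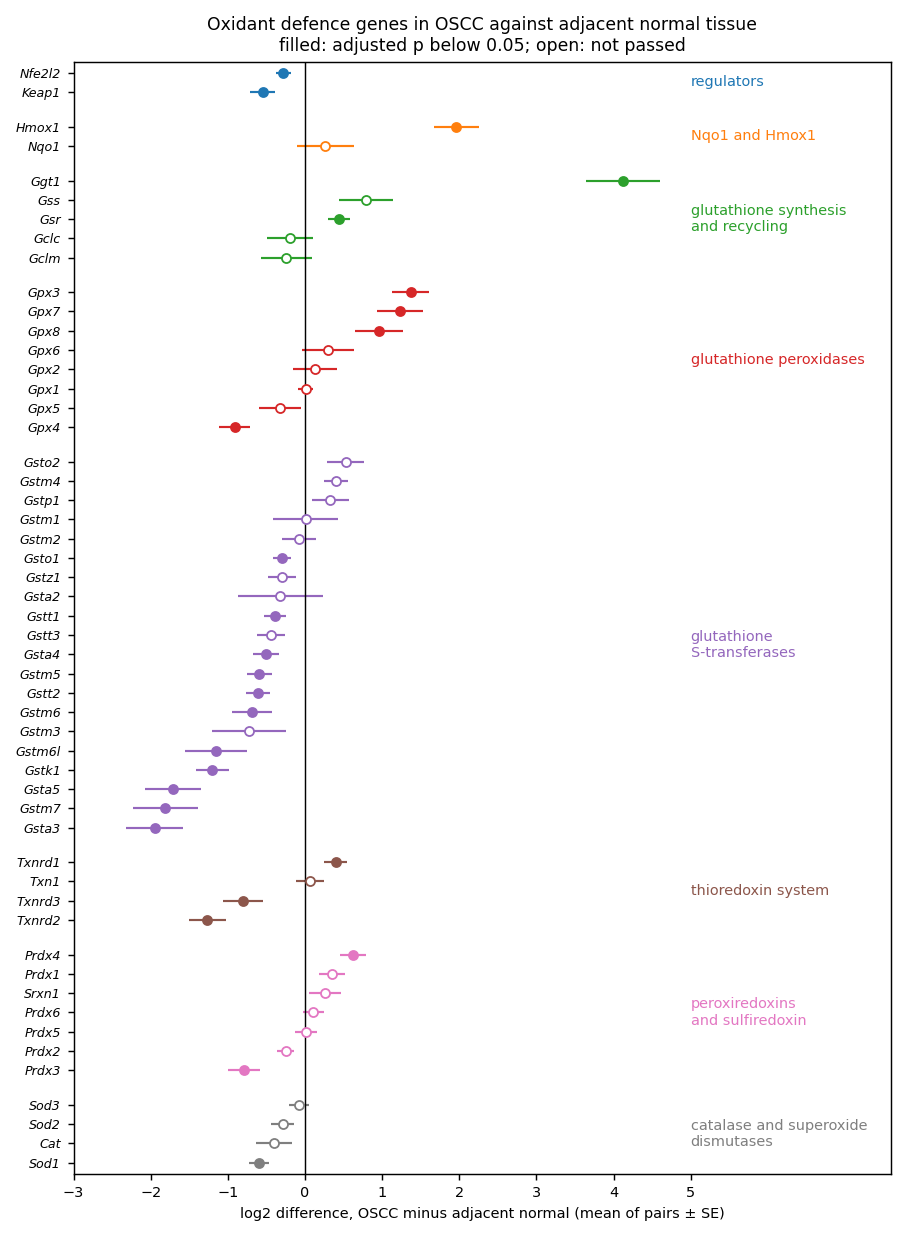
Mean log2 difference (OSCC minus adjacent normal, horizontal axis) of the 52 genes, grouped by role, with bars for the SE over pairs; filled points passed at an adjusted p below 0.05. Ggt1 (4.12) and Hmox1 (1.96) lie farthest to the right, and the fallers among the S-transferases reach -1.95.

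Both regulators fell slightly. Nfe2l2 had normal levels of 2.76 to 3.31 (median 2.89) and OSCC levels of 2.25 to 3.01 (median 2.76), a difference of -0.28 ± 0.10 (SE, n = 11 pairs, limma adjusted p = 0.036), lower in 10 pairs. Keap1 ranged over 0.41 to 1.04 in the normal pieces (median 0.85) and over -0.37 to 0.92 in the carcinomas (median 0.15), a difference of -0.55 ± 0.16 (n = 11 pairs, limma adjusted p = 0.019), also lower in 10 pairs. The groups overlapped widely for both. The difference of Nfe2l2 was close to the median of all probes, -0.24, which includes many dim ones. Nfe2l2 was well above background on every array, and with dim probes filtered out that median was -0.04. The call of Nfe2l2 was lost without any 1 of animals 4, 9, 11, 13, 21, 22 or 25, with an adjusted p of up to 0.07, and it passed under 2 of 5 other scalings. That of Keap1 remained without each animal in turn and under all 5 scalings, and was lost with slide as a random block (limma adjusted p = 0.06) and in the 9 pairs scanned on different days (limma adjusted p = 0.08).

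Among the classical NRF2 targets, heme oxygenase rose and NAD(P)H quinone oxidoreductase did not pass the test. Hmox1, which breaks heme down to biliverdin, iron and carbon monoxide, spanned -1.66 to 1.34 across the normal pieces (median -0.63) and 0.06 to 2.44 across the tumors (median 1.74). It was higher in OSCC in all 11 pairs, by 0.46 in animal 16 to 3.85 in animal 11, with a mean difference of 1.96 ± 0.29 (3.90-fold, limma adjusted p = 0.00058). Its spread in OSCC was smaller than in normal tissue (SD ratio 0.79). Its probe lies at chr19:13969336-13969395, plus strand, in assembly rn4, the build of the array annotation.

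Nqo1, which reduces quinones to hydroquinones, had normal levels of 1.35 to 3.18 (median 1.84) and OSCC levels of 0.08 to 4.75 (median 2.27). The mean difference was 0.26 ± 0.37 (n = 11 pairs, limma adjusted p = 0.56), higher in 7 pairs and lower in 4. The pairs disagreed strongly, with 2.90 in animal 26 and -1.76 in animal 24.

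Hmox1 is expressed by macrophages that clear red cells, and macrophage markers also rose in OSCC. Of 10 macrophage markers 8 rose, and their summed signal was 3.94 to 5.20 in normal tissue and 4.64 to 6.28 in OSCC, with Marco not above background on any array. The pairs in which Hmox1 rose most were animals 11, 25 and 21. The macrophage sum of animals 11 and 25 rose by 2.32 and 1.91, the largest rises of the 11, and that of animal 21 by 0.29. In animal 16, with the smallest rise of Hmox1, the sum rose by 1.49, and in animal 22, where Hmox1 rose by 2.10, by 0.26. Over the pairs the differences of Cd163, a hemoglobin scavenger receptor, and Hmox1 had a Pearson r of -0.25 (permutation p = 0.46, adjusted over 8 relations 0.58) and a Spearman rho of -0.20 (permutation p = 0.56, adjusted 0.70). Without animals 21 and 24, the farthest in Cd163, r was 0.14. The part of macrophages in the rise of Hmox1 was not tested.

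The largest rise of the set was in Ggt1, the gamma-glutamyl transferase of the cell surface that begins the breakdown of extracellular glutathione. Ggt1 had levels of -6.27 to -4.77 in normal tissue (median -5.71), and none of the normal arrays held it well above background. In OSCC it lay between -5.55 and 0.19 (median -1.06) and was above background on 10 of 11 arrays. The difference was positive in all 11 pairs, with a mean of 4.12 ± 0.48 (limma adjusted p = 2e-04), which gives at least 4.89-fold higher in OSCC when the floor of the normal arrays is used.

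The pairs of animals 22 and 21 showed the smallest rises of Ggt1, 0.41 and 1.68, and those of animals 17 and 16 the largest, 6.23 and 6.12. Serous gland markers also rose in OSCC, 7 of the 8 found on the array by symbol. Their summed signal was -2.38 to 1.41 in normal tissue and 1.15 to 12.23 in OSCC. The other marker, Pip, differed by -0.54 (limma adjusted p = 0.041) and was above background on no array. The gland sum rose by 13.91 and 13.00 in animals 17 and 16, among the 3 largest rises, and by 4.38 and 5.51 in animals 22 and 21. In animal 24, the other of those 3, the gland sum rose by 13.39 and Ggt1 by 3.46. In animals 26 and 25, whose gland sums rose least (1.96 and 2.24), Ggt1 differed by 4.13 and 5.03. The part of gland cells in the rise of Ggt1 was not tested. Under the normexp background correction, which adds an offset of 50 signal units and so compresses dim genes, the mean difference of Ggt1 was 1.17.

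Of the other 4 genes of glutathione supply, only Gsr passed the test. Glutathione reductase, Gsr, which returns oxidized glutathione to its reduced form, rose by 0.44 ± 0.14 (limma adjusted p = 0.029), from a median of -0.59 in normal tissue to -0.25 in OSCC, in 9 pairs. That call was lost without animal 4, 11, 13 or 26, with an adjusted p of up to 0.066. Glutathione synthetase, Gss, which adds glycine in the last step of synthesis, differed by 0.79 ± 0.35 (limma adjusted p = 0.079), and its OSCC values ran from -0.55 to 2.67 against -0.16 to 0.86 in normal tissue. Without animal 24 alone Gss differed by 1.01 (limma adjusted p = 0.022).

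Gclc, the catalytic subunit of glutamate-cysteine ligase, which sets the rate of glutathione synthesis, ranged over 0.64 to 1.62 in the normal pieces (median 1.34) and over -0.55 to 3.14 in the carcinomas (median 0.86). The mean difference was -0.19 ± 0.30 (limma adjusted p = 0.61), higher in 3 pairs and lower in 8. The 2 extremes were again animal 26, at 2.04, and animal 24, at -2.01. Gclm, the modifier subunit, spanned -6.61 to -3.79 across the normal pieces (median -5.49) and -7.44 to -4.61 across the tumors (median -5.27). Since none of the 22 arrays held it well above background, its difference of -0.24 ± 0.33 (limma adjusted p = 0.56; higher in 6 pairs) has no use as a measure of expression.

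Of the 8 glutathione peroxidases, 3 rose and 1 fell. Gpx3, the secreted form found in plasma, had normal levels of -0.30 to 0.83 (median 0.40) and OSCC levels of 0.61 to 3.02 (median 1.72). It was higher in 10 pairs, with a mean difference of 1.37 ± 0.24 (2.58-fold, limma adjusted p = 0.0012). Animal 4 alone had a difference below 0, of -0.15, and animal 24 the highest, of 2.93.

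Gpx7 and Gpx8 encode peroxidases of the endoplasmic reticulum that work with protein disulfide isomerase. Gpx7 ranged over -1.33 to -0.44 in the normal pieces (median -0.79) and over -1.40 to 1.55 in the carcinomas (median 0.57), a difference of 1.23 ± 0.30 (2.34-fold, limma adjusted p = 0.0079), higher in 9 pairs. Gpx8 differed by 0.96 ± 0.31 (limma adjusted p = 0.027), also higher in 9 pairs, a call lost without animal 4, 11, 13, 25 or 26 (adjusted p up to 0.062). The 2 genes ranked the pairs alike at both ends: animals 11, 13 and 25 had the largest rises, 2.64, 2.29 and 2.48 for Gpx7 and 2.13, 2.32 and 2.29 for Gpx8. Animal 17 had the lowest values, -0.96 and -1.09.

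Fibroblast markers followed the same pairs as Gpx7 and Gpx8. Of 8 fibroblast markers 5 rose, and their sum was 5.88 to 6.71 in normal tissue and 5.78 to 8.81 in OSCC. The sum rose by 2.65, 2.21 and 2.44 in animals 11, 13 and 25, the 3 largest values, and fell by 0.93 in animal 17, the only pair in which it fell. All 8 markers were above background in both tissues. The likeness was not particular to fibroblasts. The macrophage sum also rose most in animals 11, 25 and 13, by 2.32, 1.91 and 1.58, and was lowest in animal 17, at -0.09. Skeletal muscle markers, given below, fell most in animals 25, 11 and 13, and fell by 1.11 in animal 17. These likenesses were noticed after the values were seen. The part of fibroblasts, macrophages or muscle in the rise of the 2 genes was not tested.

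Gpx4, which reduces lipid hydroperoxides within membranes and guards against ferroptosis, fell in all 11 pairs. It spanned 4.42 to 5.08 across the normal pieces (median 4.82) and 3.1 to 4.99 across the tumors (median 3.53), a difference of -0.91 ± 0.20 (limma adjusted p = 0.004). A second probe of Gpx4 gave -0.87 (limma adjusted p = 0.0036). The fall ran from -0.02 in animal 24 to -1.72 in animal 11. Gpx1, the abundant cytosolic enzyme, had a mean difference of 0.01 ± 0.10 (limma adjusted p = 0.94), and Gpx2, an enzyme of epithelia, of 0.13 ± 0.28 (limma adjusted p = 0.70). Gpx2 nevertheless ranged from 2.47 to 5.70 in OSCC against 4.10 to 4.89 in normal tissue.

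**Figure D2:**
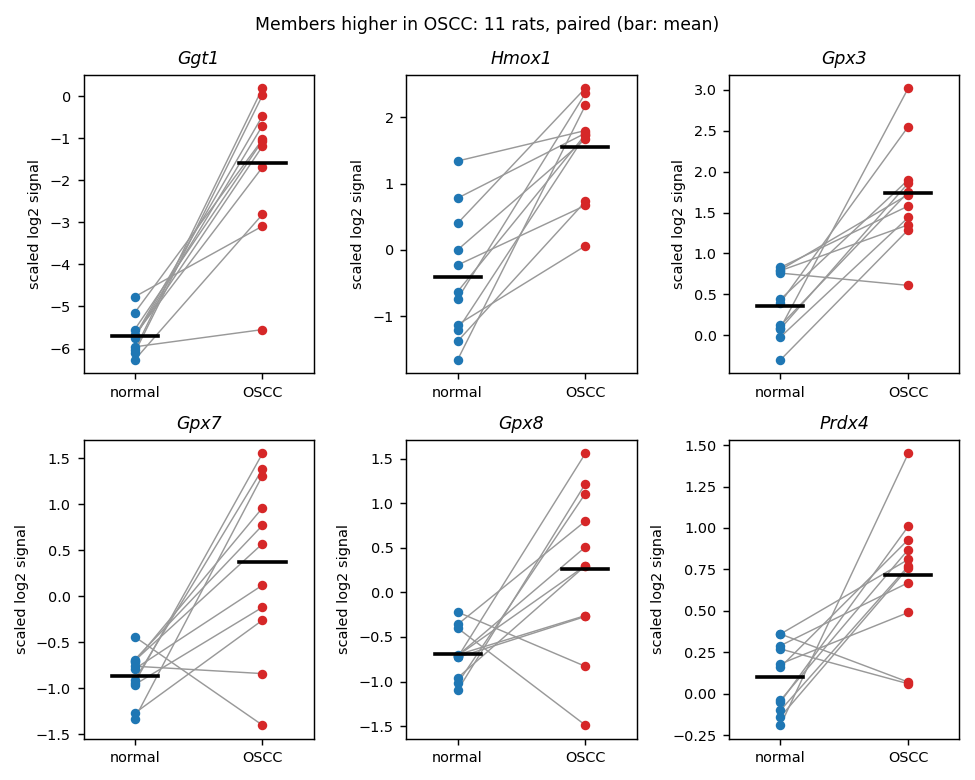
Scaled log2 signal of 6 genes that rose, in normal tissue (blue) and OSCC (red); grey lines join the 2 tissues of a rat and black bars are means of 11. Every line rises for Ggt1 and Hmox1, and 2 lines fall for each of Gpx7, Gpx8 and Prdx4.

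Of the 20 glutathione S-transferases 11 fell in OSCC, 5 of them by at least 2-fold, none rose and 9 did not pass the test, where 27.9% of all genes fell. A mean difference below 0 was found for 16 and one above 0 for 4. Their median difference was -0.48, against -0.21 over all genes, of which a larger part was dim. The fallers included members of the alpha, kappa, mu, omega and theta classes.

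The largest fall was that of the probe the array names Gsta3 and RefSeq now assigns to Gsta1, an alpha class enzyme. Array Gsta3 had normal levels of 2.16 to 3.41 (median 3.22) and OSCC levels of -1.24 to 3.22 (median 0.94), a difference of -1.95 ± 0.37 (3.86-fold lower, limma adjusted p = 0.0019), lower in 10 pairs. Array Gsta5, now Gsta3, ranged over 0.93 to 2.48 in the normal pieces (median 1.94) and over -2.25 to 2.19 in the carcinomas (median 0.20), a difference of -1.71 ± 0.36 (3.26-fold lower, limma adjusted p = 0.0036), lower in 9 pairs, and its second probe differed by -1.90. The 2 genes shared their largest fall, in animal 25 (-3.90 and -3.64), and their highest values, in animal 22 (0.05 and 0.29) followed by animal 24. Their probes lie on chromosome 9, array Gsta3 at chr9:20051658-20051717, minus strand, and array Gsta5 at chr9:20026897-20029435, plus strand, in rn4.

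Gstm7, of the mu class, was nearly constant in normal tissue and dispersed in OSCC. It spanned 1.31 to 2.05 across the normal pieces (median 1.81) and -2.45 to 2.41 across the tumors (median -0.29), an SD 6.11 times as large. The difference was -1.81 ± 0.42 (3.52-fold lower, limma adjusted p = 0.0059), lower in 9 pairs, and ran from -3.89 in animal 11 to 0.38 in animal 24. Gstm7 lies in the mu cluster of chromosome 2 (probe at chr2:203491529-203491588, minus strand, rn4).

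Gstk1, the kappa enzyme of mitochondria and peroxisomes, fell in all 11 pairs. Its normal levels were 0.31 to 1.02 (median 0.78), and its OSCC levels -1.66 to 0.92 (median -0.61). Its difference was -1.20 ± 0.21 (2.29-fold lower, limma adjusted p = 0.0014). Gstm6l, another mu gene, had normal levels of -2.98 to -1.40 (median -2.19) and OSCC levels of -5.40 to -1.15 (median -3.47), where 9 of 11 arrays were above background. It differed by -1.15 ± 0.40 (2.22-fold lower, limma adjusted p = 0.035) and was lower in 8 pairs, with 1.60 in animal 24.

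Another 6 S-transferases fell by less than 2-fold. The differences were -0.61 for Gstt2, -0.59 for Gstm5, -0.51 for Gsta4, -0.39 for Gstt1 and -0.30 for Gsto1, with adjusted p-values from limma between 0.0096 and 0.049. Gstm6 differed by -0.69 (limma adjusted p = 0.048) but was well above background on none of the arrays. The calls of Gsta4, Gstm6, Gstm6l, Gsto1 and Gstt1 were each lost without 1 of several animals, 4 of the 11 for Gsta4 (9, 11, 13 and 16) and 9 of the 11 for Gsto1 (all but 16 and 22). Gstm6 and Gstm6l each lost theirs without animal 4, 9, 11, 13, 16, 25 or 26, and Gstt1 without animal 4, 9, 11, 13, 16, 21, 25 or 26. The highest adjusted p among these was 0.11.

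Gstp1, the pi enzyme that marks preneoplastic liver foci in the rat, did not pass the test in tongue OSCC. It lay between 4.08 and 4.94 in normal tissue and between 3.91 and 6.13 in OSCC, a difference of 0.33 ± 0.24 (limma adjusted p = 0.26). The other S-transferases that did not pass were Gsta2, Gstm1, Gstm2, Gstm3, Gstm4, Gsto2, Gstt3 and Gstz1, with differences from -0.72 (Gstm3) to 0.53 (Gsto2). For Gstt3 the OSCC array of animal 4 had no value, so that pair did not enter its fit. Gstm1 had a mean difference of 0.01 that joined -2.84 in animal 24 with 2.62 in animal 26. Probes of 1 class did not share more than 35 of 60 bases in the same register, the most alike being Gstm3 and Gstm6l, and cross-hybridization within the family was not tested.

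The thioredoxin reductases went different ways. Txnrd1, the cytosolic enzyme and an NRF2 target, ranged over 0.18 to 0.84 in the normal pieces (median 0.36) and over -0.15 to 1.79 in the carcinomas (median 0.82), a difference of 0.40 ± 0.15 (limma adjusted p = 0.043), higher in 9 pairs. Its second probe rose by 0.85 (limma adjusted p = 0.0058) in 10 pairs. The call on the brighter probe was lost without any 1 of animals 4, 9, 11, 13, 22, 25 or 26 (adjusted p up to 0.094).

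Txnrd2, the mitochondrial enzyme, fell. It spanned 0.15 to 0.92 across the normal pieces (median 0.58) and -1.57 to 0.85 across the tumors (median -0.96), a difference of -1.27 ± 0.24 (2.40-fold lower, limma adjusted p = 0.002). It was lower in 10 pairs, and animal 24 was the exception, at 0.28. Txnrd3, a reductase known from testis, differed by -0.80 (limma adjusted p = 0.029), lost without animal 4, 9, 13, 16, 25 or 26. Thioredoxin itself, Txn1, had a difference of 0.06 ± 0.18 (limma adjusted p = 0.80).

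Among the peroxiredoxins, Prdx4 rose and Prdx3 fell. Prdx4, the form of the secretory pathway, went from a median of 0.16 in normal tissue to 0.77 in OSCC (difference 0.62 ± 0.17, limma adjusted p = 0.014, higher in 9 pairs). Prdx3, the mitochondrial form, went from a median of 3.31 to 2.12 (difference -0.79 ± 0.21, limma adjusted p = 0.013, lower in 9 pairs). Prdx1, Prdx2, Prdx5 and Prdx6 did not pass, with differences between -0.25 and 0.35.

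Sulfiredoxin, Srxn1, which repairs overoxidized peroxiredoxins and is an NRF2 target, had normal levels of 1.75 to 2.62 (median 2.18) and OSCC levels of 1.06 to 3.58 (median 2.57). Its difference was 0.26 ± 0.21 (limma adjusted p = 0.31), higher in 7 pairs, and 0.43 (limma adjusted p = 0.039) without animal 24. Of the enzymes that remove superoxide and hydrogen peroxide directly, Sod1, the copper-zinc enzyme, fell in all 11 pairs, by 0.60 ± 0.13 (limma adjusted p = 0.0036), and Sod2, Sod3 and Cat did not pass, with differences of -0.29, -0.08 and -0.40. The relation of the differences of Il1b, a cytokine known to induce Sod2, and Sod2 over the pairs had a Pearson r of -0.37 (permutation p = 0.26, adjusted 0.41) and a Spearman rho of -0.44 (permutation p = 0.18, adjusted 0.39). Without animals 22 and 24 that r was 0.13.

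**Figure D3:**
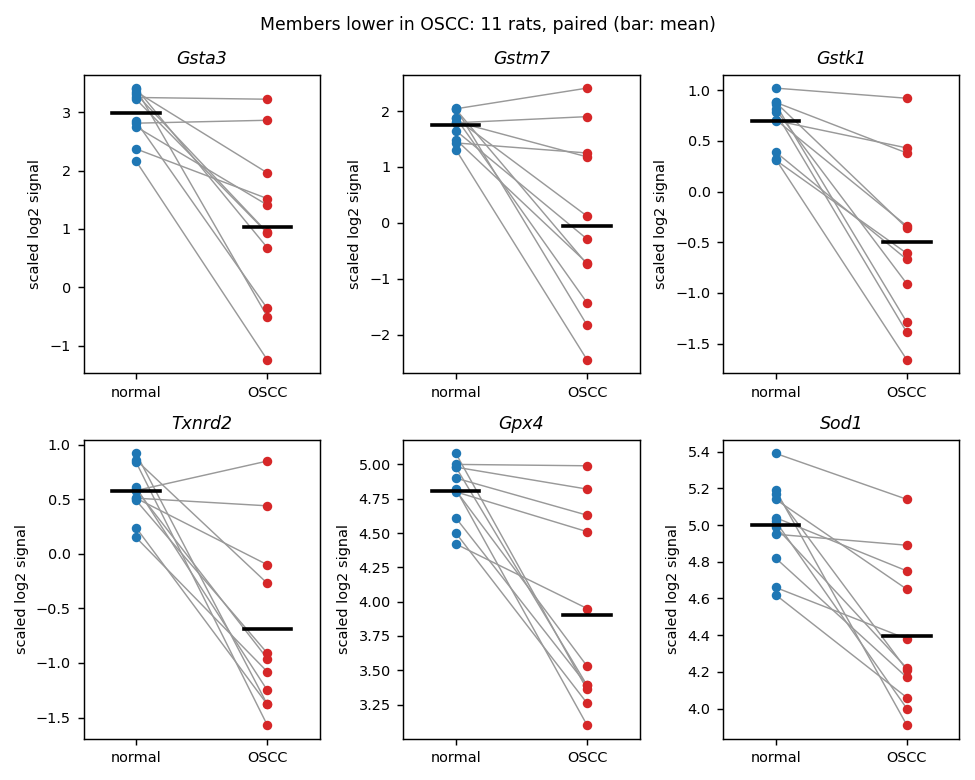
Scaled log2 signal of 6 genes that fell, in normal tissue (blue) and OSCC (red); grey lines join the 2 tissues of a rat and black bars are means of 11. The normal values are close together and the OSCC values spread widely, with a few tumors at the normal level for Gsta3, Gstm7, Txnrd2 and Gpx4; Gstk1, Gpx4 and Sod1 fell in every pair.

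Skeletal muscle markers fell as well, in part of the pairs. Of 10 skeletal muscle markers 8 fell, all by at least 2-fold, and all 10 were above background in both tissues. Their summed signal was 10.48 to 11.52 in normal tissue and 6.47 to 11.61 in OSCC. It rose in the pairs of animals 21, 22 and 24, by 0.70, 0.24 and 0.58, and fell most in animals 25, 11 and 13, by 4.28, 4.17 and 4.14.

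In the pairs of animals 21, 22 and 24 the difference of Gstm7 was -0.17, 0.11 and 0.38, and in animals 25, 11 and 13 it was -3.31, -3.89 and -3.75. The values of Gpx4 in the first 3 pairs were -0.26, -0.16 and -0.02, and in the other 3 they were -1.60, -1.72 and -1.22. For array Gsta3 they were -1.35, 0.05 and -0.03 against -3.90, -3.19 and -3.40. These 3 genes were lower in the 3 pairs with the largest falls of muscle signal than in the 3 where it rose. In animal 17, where muscle signal fell by 1.11, Gpx4 differed by -0.28, about as in animal 21, and Gstm7 by -0.63. In animal 16, where it fell by 1.87, Gpx4 differed by -0.47 and array Gsta3 by -2.73. Without animals 21, 22 and 24 Gstm7 differed by -2.53, Txnrd2 by -1.69 and Gpx4 by -1.19. The part of muscle in these falls was not tested. Hmox1 rose by 2.94 in animal 21, where muscle signal rose, and by 2.37 in animal 13, where it fell.

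**Figure D4:**
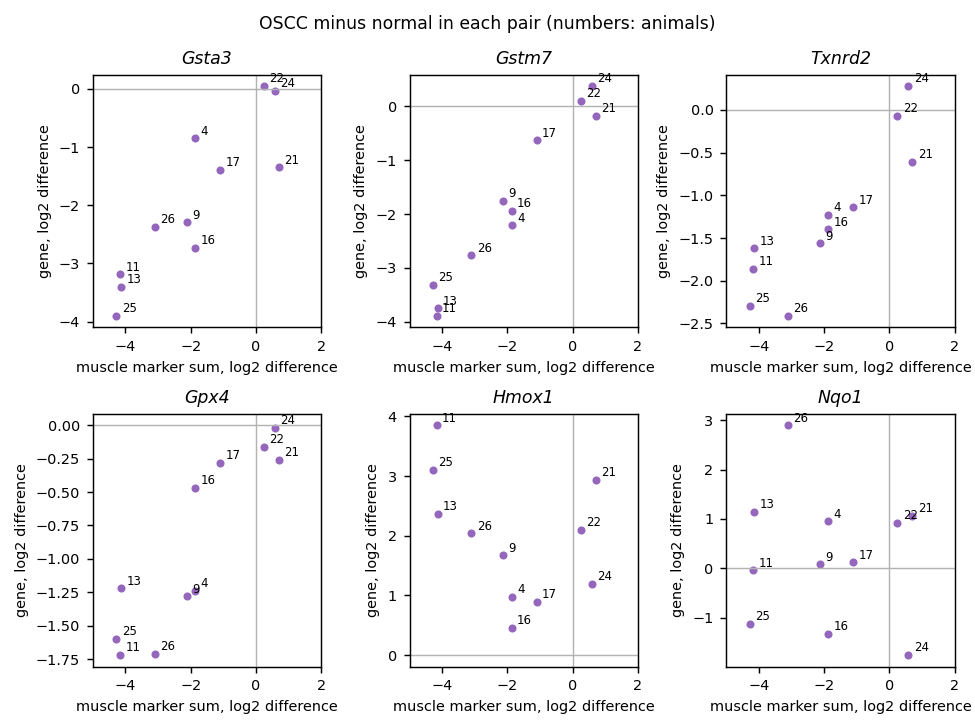
Log2 difference (OSCC minus normal) of 6 genes, vertical axes, against that of the summed muscle markers, horizontal axes, with 1 numbered point for each animal. The lowest point of Gsta3, Gstm7, Txnrd2 and Gpx4 lies among the 4 animals at the left, where muscle signal fell by 3.11 or more, and their points for animals 22 and 24 at the right lie near 0, with the animals between not in strict order.

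Most genes of the set spread more between tumors than between normal pieces, as did most genes on the array. The SD was larger in OSCC than in normal tissue for 48 of 52 genes, with a median ratio of 2.30, against 16177 of 19167 genes and 1.67 over all genes. The 2 ratios are not like for like, since only 9573 of all genes were well above background on every array. Animals 26 and 24 were often at the ends of that spread, which was noticed after the values were seen and is given as a description. Of the genes above background on every array, 42 were measured in every pair (Gstt3 lacked 1). Animal 26 had the highest difference of the 11 pairs for 12 of them (28.6%), against 10.3% of 9550 such genes. It had the lowest for 4 (9.52%), against 9.91%. Animal 24 had the lowest for 12 (28.6%), against 23.5%, and also the highest for 11 (26.2%), against 18.1%, so it lay at both ends.

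In the OSCC of animal 26, Nqo1 was higher than in its normal tissue by 2.90, Gss by 2.74 and Gstm1 by 2.62. The difference was 2.04 for Gclc, 1.94 for Gstp1, 1.57 for Prdx1 and 1.54 for Gpx2. Srxn1 and Txnrd1 followed with 1.42 and 1.12, and each of these 9 values was the highest of the 11 pairs. The same pair had the lowest value of the 11 for Txnrd2 (-2.41), Gstk1 (-2.17), Prdx3 (-1.74) and Gstt1 (-0.97). Hmox1, at 2.04, was at its median. Nfe2l2 itself differed by 0.05 in that pair, its highest value of the 11, and Keap1 by -0.88, which was not its lowest.

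In animal 24 several of the genes that were highest in animal 26 were at the other end. Nqo1 was lower by 1.76, Gstm1 differed by -2.84, Gpx2 by -2.42 and Gclc by -2.01, and Srxn1, Gss and Gstp1 by -1.43, -1.41 and -1.03, each the lowest of the 11. Txnrd1 was not low there, at 0.38. Nfe2l2 differed by -0.56 in animal 24, its lowest value, and Keap1 by 0.28, its highest. The OSCC of animal 26 was the only array on its slide, and its normal array had the lowest 75th percentile and the lowest share of probes above background (48.4%) of the normal arrays. Of the squamous markers, Krt14, Krt5 and Tp63 differed by -4.33, -3.53 and -3.04 in animal 24, each the lowest of the 11. Krt13, Krt4 and Krt15 were lowest in other pairs. The part of squamous cells in the values of animal 24 was not tested. The squamous marker sum of animal 24 fell by 1.33, the largest fall of the 11. That of animal 26 rose by 0.06. Without both animals 6 genes of the set rose and 15 fell, and Nqo1 differed by 0.20 (limma adjusted p = 0.58).

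**Figure D5:**
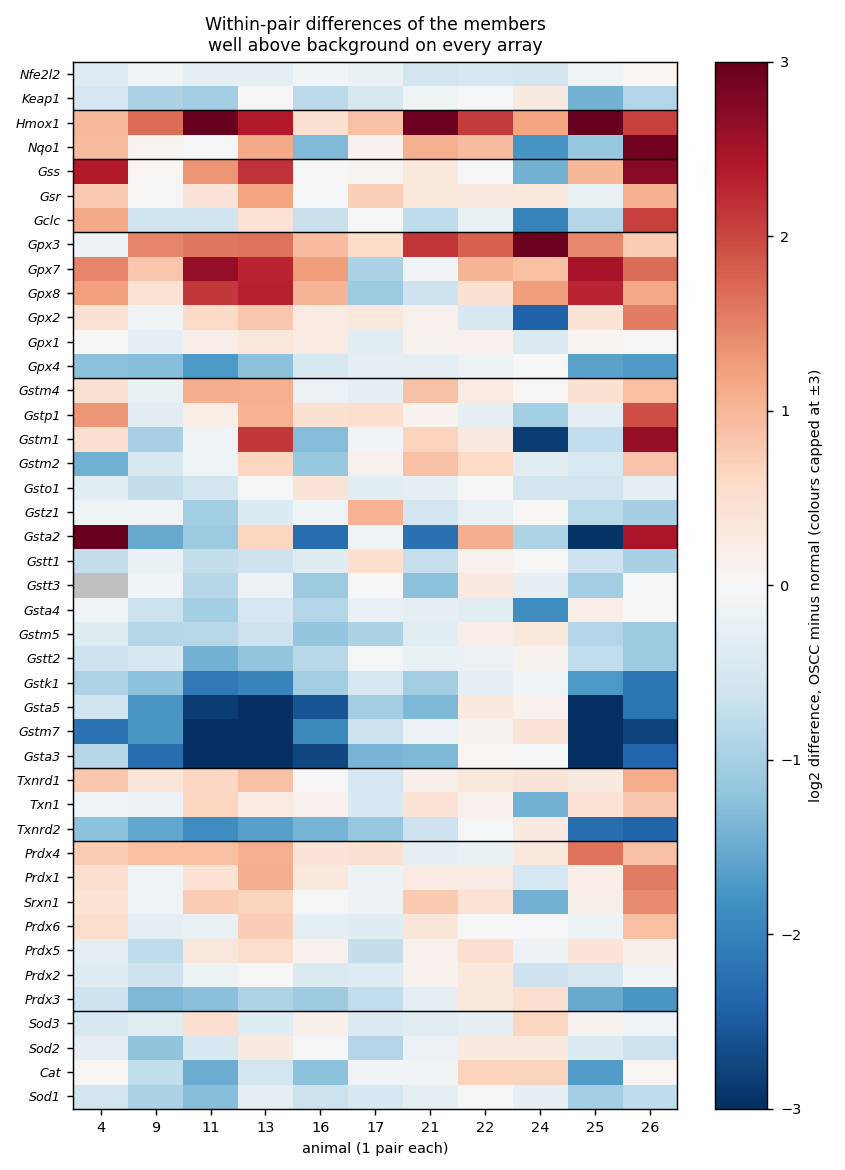
Log2 difference (OSCC minus normal) of the 43 genes above background on every array (rows, grouped by role) in each animal (columns); red is higher and blue lower in OSCC, colours stop at 3 in both directions, and grey is a missing value. The column of animal 26 is red for Nqo1, Gss, Gclc, Gstp1, Gstm1 and Prdx1, that of animal 24 is blue for the same genes, and Gsta5, Gstm7 and Gsta3 are blue except in animals 22 and 24.

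Whether NRF2 targets varied together over the pairs was tested with Nqo1 against 6 others. Animal 26 stood apart in Nqo1, by a gap of 37.8% of the range, so no value over all 11 pairs is given and animal 26 was left out. Over the other 10 pairs Nqo1 and Gclc had a Pearson r of 0.74 (permutation p = 0.01, adjusted over 8 relations 0.083) and a Spearman rho of 0.68 (permutation p = 0.035, adjusted 0.18). Without animals 16 and 24, the farthest in Nqo1, r was 0.56. Without animal 21, r was 0.85 (permutation adjusted p = 0.013).

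Nqo1 and Gsr had r = 0.62 (permutation p = 0.053, adjusted 0.21) and rho = 0.66 (permutation p = 0.044, adjusted 0.18) over 10 pairs. For Srxn1 and Txnrd1, in which a second animal stood apart (24 and 17), r was 0.58 and 0.49 over 9 pairs (exact permutation, adjusted p = 0.29 and 0.37). For Gclm and Hmox1 r was -0.20 and 0.24, each with an adjusted permutation p of 0.58. Gclm was well above background on none of the arrays, so its r cannot show whether it varied with Nqo1. None of the 8 relations passed the correction.

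Genes of the same pathways outside the set went both ways. Of 76 such genes on the array 16 rose and 17 fell, 4 and 5 of them by at least 2-fold, with a median difference of -0.02. Of all genes 17.0% rose and 27.9% fell, 7.48% and 7.24% by at least 2-fold, so these counts do not set the pathways apart. Haptoglobin, Hp, which binds free hemoglobin, showed the largest change: it was not above background on any normal array, was above it on 10 OSCC arrays, and differed by 5.49 (limma adjusted p = 4.4e-05), at least 14.5-fold higher. Nfe2, a myeloid and erythroid relative of NRF2, was above background on no normal array and on 7 OSCC arrays. It was at least 1.57-fold higher (difference 2.53, limma adjusted p = 0.0033). Maff, a small MAF partner, rose by 1.51 (limma adjusted p = 0.00031). Tgfa, a ligand of the EGF receptor, rose by 1.34.

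The falls outside the set were led by Mgst3, a microsomal glutathione transferase, with -1.71 (limma adjusted p = 0.0017). Aldh3a1, an aldehyde dehydrogenase of stratified epithelia, differed by -1.50 (limma adjusted p = 0.0015) and Pir, an iron-binding NRF2 target, by -1.06. Nfe2l3, another relative of NRF2, differed by -1.30 and was above background on only 8 normal and 6 OSCC arrays. Taldo1 and Tkt, which interconvert sugar phosphates in the pentose phosphate pathway, did not pass, with differences of 0.06 and -0.07. The cystine carrier Slc7a11 differed by 0.10 (limma adjusted p = 0.89).

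The scan day differed between tissues in 9 pairs. In these 9 pairs alone 4 genes of the set rose (Ggt1, Hmox1, Gpx3 and Gpx7) and 9 fell (array Gsta3, Gsta5, Gstm7, Gstk1, Gstm5, Gstt2, Txnrd2, Gpx4 and Sod1). In the 2 pairs scanned within 1 day, which this fit did not use, 12 of those 13 had the same direction in animal 4, with Gpx3 the exception, and 13 of 13 in animal 9. With scan day as a term, which leaves those 2 pairs to carry the comparison, limma called 0 genes of the set. An unadjusted limma p below 0.05 was found for 8, of which 5 were among the 26 genes that rose or fell. All 26 kept their direction there, but those 2 pairs were also part of the fit that called the 26.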

How the data were processed

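Agilent Rat GE 4x44K v3 arrays of 11 pairs of OSCC and adjacent normal tongue were analysed. The authors extracted the scans with Feature Extraction 9.5.3.1 and deposited for each spot an intensity that was background-subtracted and detrended within the array, in linear units, not scaled between arrays. They also deposited that signal as a ratio to the 75th percentile of its array, used here only as an alternative. A sample's tissue and animal were taken from its title.

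Control spots and 9196 outlier spots (0.975%) were left out, spots of a probe were averaged as log2 of the deposited intensity, and the array's 75th percentile was subtracted. For 68 probes at least 1 array had no value. No gene was removed for low signal, and 43 of the 52 genes were well above background on all 22 arrays and 3 on none. The comparison used limma 3.58.1 (R 4.3.3), with tissue and rat as terms. The pairing comes from 1 rat giving both tissues. The deviations of the paired tissues from their group means had correlations across probes of -0.21 to 0.24 (median -0.02). For a gene that no array of 1 tissue held well above background, the fold is a lower limit against the lowest signal well above background on those arrays. The number of arrays limits the precision, as does signal over background for dim genes.

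Full values are given for genes of the set with an adjusted p below 0.05 and a 2-fold change and, whatever their result, for Nfe2l2, Keap1, Nqo1, Hmox1, Gclc, Gclm, Txnrd1 and Srxn1. Up to 8 genes are named from the pathway list, those with the largest differences that passed, and others there were chosen after their values were seen. Some genes counted in the pathway and marker lists are not reported here by name. The genes of the set, the pathway and marker lists and the tests were chosen with earlier results of these data known. Relations over pairs used 100000 permutations, or all orders below 10 pairs. Where the widest gap exceeded 30% of the range, the larger cluster was used, a step written after the values were seen. Array symbols were checked through probe accessions against RefSeq (GRCr8), which matched 49 genes and gave 2 another symbol. The fit was tested on simulated data. Alternatives were other scalings, background correction, filters, tests, blocks and subsets of pairs.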

Additional observations from a re-analysis of the deposited data

How the results depend on the processing

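All 26 genes of the set that rose or fell kept their direction under every scaling, test, block and subset of pairs tried, and 24 of 24 did so among those left by the filter on dim probes. Of the 26, 16 kept their call without each pair in turn and 13 passed under all 5 other scalings. Genes of the set that rose (8) numbered 9 without the replicate block by rat, 5 with arrays scaled to their median, 5 with normexp, 5 with slide as a random block, 4 in the 9 pairs scanned on different days and 0 with scan day as a term. Those that fell (18) numbered 19 without the replicate block, 8 with normexp, 10 with slide as a random block, 9 in the 9 pairs and 0 with scan day. At 2-fold and p below 0.05 without adjustment the methods' paired t-test called 4 and 6, and limma with scan day 1 and 6. After Benjamini-Hochberg adjustment the methods' t-test called 8 and 16. Leaving out 1 pair gave 5 to 12 that rose and 11 to 19 that fell.

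Over all genes, those that rose (3267) numbered 1161 with normexp, 2149 with slide, 2172 in the 9 pairs, 0 with scan day, 1190 with scan day unadjusted and 2-fold, and 1452 by the methods' t-test unadjusted and 2-fold. Those that fell (5350) numbered 8655 with array medians, 3544 with the percentile of detected probes, 1378 with normexp, 3564 with the filter on dim probes, 2658 with slide, 2329 in the 9 pairs, 3 with scan day, 8387 without animals 21, 22 and 24, and 1404 by the unadjusted t-test. Leaving out 1 pair gave 3141 to 6840 that fell and 2574 to 3556 that rose. The causes were not tested.

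Only genes that did not pass changed sign. With array medians the log2 difference was -0.19 for Gpx1, Gstm1 and Prdx5, -0.07 for Gpx2, -0.09 for Prdx6 and -0.14 for Txn1. With scan day as a term it was 0.27 for Gclc, -0.15 for Gpx1, 0.95 for Gsta2, -0.23 for Gstm1, -0.02 for Gsto2, -0.54 for Prdx5 and -0.13 for Txn1. With normexp it was -0.03 for Gpx1 and -0.36 for Gpx6. Quantile normalization gave 0.04 for Gpx5, 0.16 for Gstm2 and 0.07 for Sod3, and the percentile of detected probes gave 0.01 for Gstm2 and for Sod3. The 9 pairs gave 0.12 for Gclm and for Gstm2. Without animals 21, 22 and 24 Gclc was at 0.11 and Prdx5 at -0.03. Leaving out 1 pair gave -0.02 to 0.06 for Gpx1, -0.01 to 0.39 for Gpx2, -0.25 to 0.30 for Gstm1, -0.17 to 0.06 for Gstm2, -0.04 to 0.09 for Prdx5 and -0.02 to 0.21 for Txn1.

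Of the relations with Nqo1, those with Txnrd1 and Gsr reached r = 0.94 and 0.89 (permutation adjusted p = 0.028 for both) without animals 21, 22 and 24. Animal 26 was left out of both here too, and animal 17 of that with Txnrd1, so few pairs remained. Without animals 21, 22 and 24 r was 0.00 for Gclm and Hmox1, 0.13 for Cd163 with Hmox1 and 0.32 for Il1b with Sod2, and with normexp 0.07 for the last. Leaving out 1 pair gave r of 0.58 to 0.85 for Gclc and -0.34 to 0.18 for Gclm. Leaving out animals 24 and 26, and giving animals 4 and 9 side by side, were chosen after seeing the data.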

Other observations

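Markers of other cells in the tongue also differed between the tissues, beside the lists given above. Of 9 neutrophil markers on the array 6 rose, and their summed signal was -0.41 to 2.20 in normal tissue and 0.76 to 8.63 in OSCC, with Mpo among those not above background on any array. The sum was higher in 10 of 11 pairs and lower in animal 24, by -0.57. All 3 red blood cell markers on the array fell, with sums of 4.94 to 6.16 in normal tissue and 3.51 to 5.53 in OSCC. Of 7 endothelial markers 3 fell (sums 3.32 to 3.87 and 2.05 to 3.81), and none of 5 adipocyte markers passed (2.23 to 4.24 and 1.01 to 4.45).

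The squamous epithelial markers checked the tissue itself. All 9 on the array were above background in both tissues, Krt15 fell by 2.54 and Dsg3 rose by 1.07, and the other 7 did not pass. Their sums were 8.93 to 9.96 in normal tissue and 7.95 to 10.03 in OSCC. The pairs were not alike: in animal 24 Krt14 differed by -4.33, Krt5 by -3.53 and Tp63 by -3.04. Those 3, Col17a1, Trim29 and Dsg3 had their lowest difference in that animal, and Krt13, Krt4 and Krt15 in others.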
